A study of Saccharomyces cerevisiae with 4 samples.

Results

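The 5 genes described here, TRP1 to TRP5, encode the yeast enzymes that turn chorismate into tryptophan, and the question is whether TRP1 differed between the strains together with its pathway or by itself. They were chosen by gene symbol, with the TRP1 intensities of these 4 arrays already known to differ between the strains, from an array of 6051 genes and unnamed spots. Each of the 5 symbols had 1 spot, so no gene could be checked against a second spot of its own. RNA was measured in Saccharomyces cerevisiae on 4 arrays, each with 1 sample of 33P-labelled cDNA copied from total RNA with an oligo(dT) primer. 2 arrays carried RNA of hsf1-R206S/F256S cells, called the mutant here, in which the heat shock transcription factor Hsf1 has 2 changed amino acids. The other 2 carried RNA of HSF1 wt cells. All cells of both strains were grown at 39 °C for 15 min, so the strains are compared under heat and nothing is said of the time before it. The labels do not give the auxotrophic markers of either strain, how the HSF1 alleles are carried, or whether each replicate was a culture of its own, and the replicate spread may be technical.

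Tryptophan is made from chorismate, the common precursor of the aromatic amino acids. Trp2 and Trp3 together form anthranilate synthase, Trp4 attaches a phosphoribosyl group, Trp1 isomerises the product, a second domain of Trp3 closes the indole ring, and Trp5, tryptophan synthase, exchanges the side chain for serine. The activator Gcn4 raises transcription of TRP2, TRP3, TRP4 and TRP5 in amino acid starvation, whereas TRP1 is known as the pathway gene outside this general control. TRP1 is also one of the most used selection markers of yeast plasmids and gene replacements.

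TRP1 was far higher in the mutant, and the rest of the pathway did not share a direction. TRP2, TRP3 and TRP4 had higher means in the mutant and TRP5 a lower one, and TRP1 alone was above background on all 4 arrays. Intensities are in arbitrary units after quantile normalization, which gives the arrays 1 common distribution, and a spot counts as above background on an array when its deposited value exceeds 3 noise SDs of that array. Spots of different genes are not compared in level.

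The level of TRP1 (YDR007W), the phosphoribosylanthranilate isomerase gene, was 434 and 373 on mutant replicates 1 and 2, against 28.8 and 47.1 on wild-type replicates 1 and 2. Both mutant arrays lay far above both wild-type arrays. The means were 404 ± 43.1 in the mutant and 37.9 ± 12.9 in the wild type (SD, n = 2 each), a difference of 3.41 on the log2 scale, or 10.6-fold higher in the mutant. The deposited values showed the same gap before any normalization, with 333 and 290.1 in the mutant and 24.4 and 37.3 in the wild type. Among the 1235 genes above background on all 4 arrays, the difference of TRP1 was the 2nd highest, below that of SSB1, a ribosome-associated Hsp70 gene, at 3.70. Among all 6051 genes and spots, dim ones included, it ranked 30th.

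**Figure D1:**
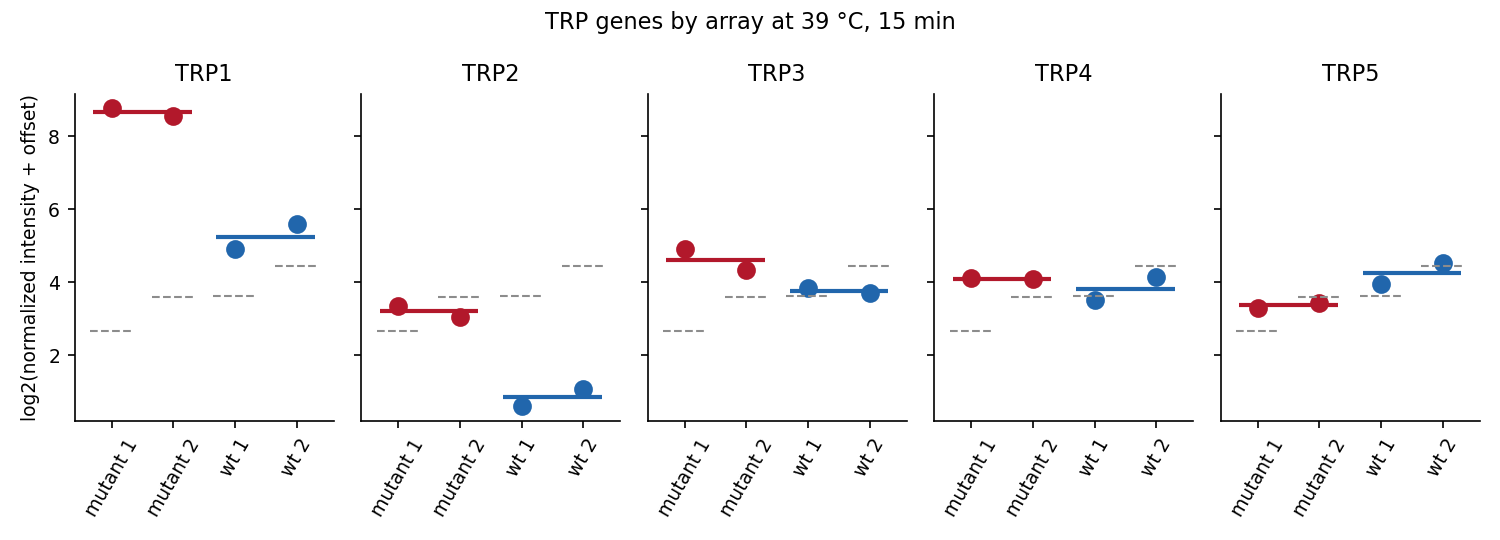
Level of each TRP gene on every array, as log2 of the normalized intensity plus an offset of 1.06; red points are hsf1-R206S/F256S arrays, blue points HSF1 wt arrays, solid bars the strain means and dashed lines the background limit of each array. TRP1 stands above the limit on all 4 arrays with a mutant level 3.41 higher. Each of the other 4 genes falls below the limit on 1 array or more.

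Of the anthranilate synthase genes, TRP2 was dim and TRP3 was below background on 1 array. TRP2 (YER090W), for the subunit that binds chorismate, had 9.25 and 7.23 in the mutant, against 0.473 and 1.06 in the wild type. The mutant arrays were higher than both wild-type arrays, but only mutant replicate 1 was above background and neither wild-type array was. The log2 difference of 2.36 therefore has no fold attached to it, because the background limits of the wild-type arrays, 11.4 and 20.8, lie above the mutant values. TRP3 (YKL211C), for the subunit that supplies ammonia from glutamine and also closes the indole ring, had 29.0 and 19.3 in the mutant, against 13.2 and 12.1 in the wild type. Again the mutant arrays were both higher, by 0.85 on the log2 scale or 1.80-fold, with wild-type replicate 1 above background and wild-type replicate 2 below it.

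As normalized here, TRP4 differed least between the strains, and TRP5 differed in the opposite direction to the rest. In the values as deposited TRP5 differed least, at -0.25 on the log2 scale, against 0.90 for TRP4. TRP4 (YDR354W), the anthranilate phosphoribosyltransferase gene, had 16.2 and 16.0 in the mutant, against 10.4 and 16.6 in the wild type. The strains overlapped, since wild-type replicate 2 was above both mutant arrays. In the deposited values they did not, with 22.3 and 17.4 in the mutant, against 8.16 and 12.4 in the wild type. Its log2 difference was 0.27, and with neither wild-type array above background no fold is given. TRP5 (YGL026C), the tryptophan synthase gene, had 8.85 and 9.71 in the mutant, against 14.6 and 22.0 in the wild type. Here both mutant arrays were lower than both wild-type arrays, by 0.88 on the log2 scale (log2 difference -0.88), or 1.84-fold lower in the mutant. Mutant replicate 2 was below background. The separation of TRP5 came with the normalization. Its deposited values overlapped, with 12.8 and 10.2 in the mutant, against 11.5 and 16.5 in the wild type.

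Because the members were chosen with this comparison in view, their differences are described without a test. Over all genes, limma's adjusted p was below 0.05 for 0 of 6051 (0%), with a smallest adjusted p of 0.277, and 710 genes (11.7%) had an unadjusted p below 0.05. A fold rule without a p-value counts genes with at least a 2-fold difference whose strains do not overlap. TRP1 and TRP2 met it upward and none of the 5 met it downward, against 13.5% of all genes upward and 12.8% downward. Both mutant arrays exceeded both wild-type arrays for 3 of the 5 genes, against 21.2% of all genes, and lay below them for 1, against 19.3%. These counts over all genes depend on the scaling, with 818 upward and 772 downward as normalized here, 1131 and 553 with median scaling, and 1700 and 338 for values as deposited.

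**Figure D2:**
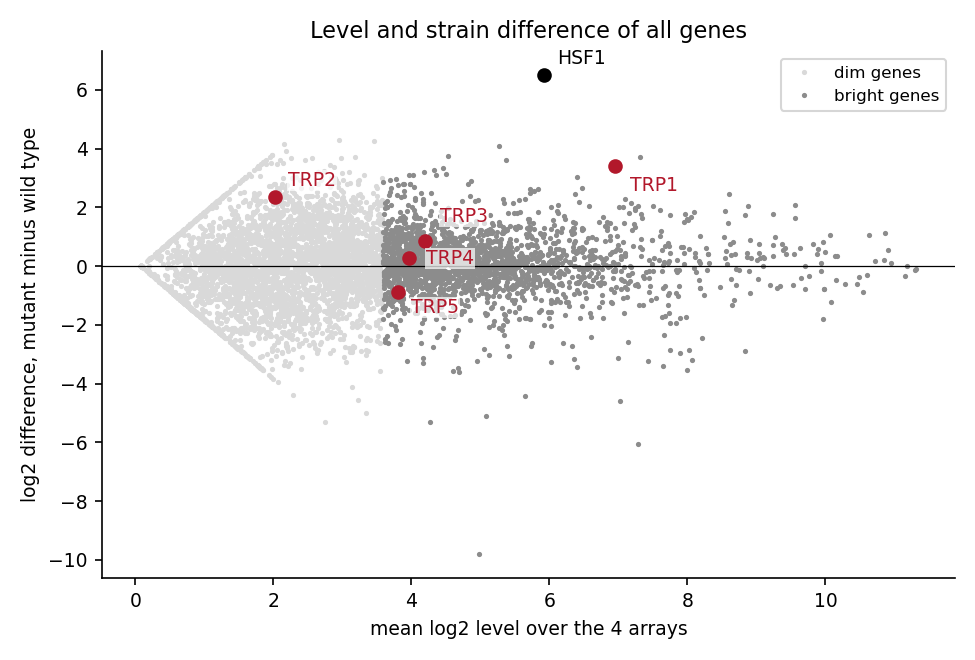
Mean log2 level over the 4 arrays against the log2 difference, mutant minus wild type, for 6051 genes and unnamed spots; dark grey points are the 2222 bright genes, whose mean level is above the mean background limit, red points the TRP genes and the black point HSF1. TRP1, at 3.41, has the 6th highest difference of the bright genes, whereas TRP3, TRP4 and TRP5 lie within their main cloud and TRP2 is among the dim genes.

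TRP1 was also set against its pathway within each array. On the log2 scale, TRP1 minus the mean of TRP2 to TRP5 was 2.77 and 2.75 on mutant replicates 1 and 2, against -0.154 and 0.154 on the wild-type arrays, each relative to the wild-type mean of that gap. The gap was thus wider by 2.76 in the mutant, with a replicate SD of 0.154 (n = 2 arrays per strain). The mean difference of the 4 other genes was 0.65 and their median 0.56. TRP2, which was dim, made up most of that mean, and without it the mean of TRP3, TRP4 and TRP5 was 0.08. Taken gene by gene, TRP1 widened its gap by 2.56 against TRP3, 3.14 against TRP4 and 4.29 against TRP5, and in each of these 3 pairs both mutant arrays lay above both wild-type arrays. TRP4 had no wild-type array above background, so the size of its gap is not settled. Its difference stayed below that of TRP1 in the 12 alternatives. Against TRP2 the gap of 1.05 is not settled even in direction. No wild-type array was above background for TRP2 either, and its difference exceeded that of TRP1 with median scaling.

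**Figure D3:**
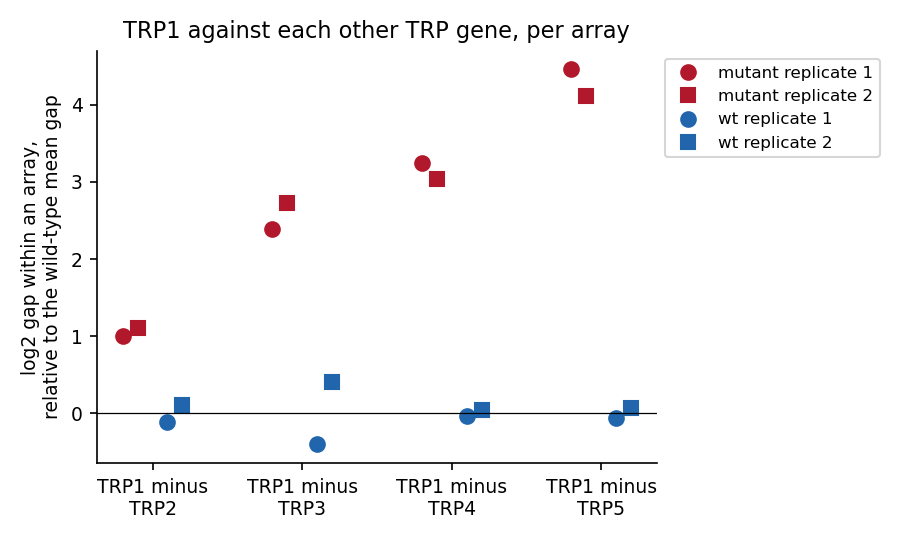
Log2 level of TRP1 minus that of each other TRP gene within an array, relative to the wild-type mean of the same gap; red symbols are mutant arrays and blue symbols wild-type arrays, circles replicate 1 and squares replicate 2. The mutant gaps average 2.56 against TRP3, 3.14 against TRP4 and 4.29 against TRP5, while that against the dim TRP2 turns with median scaling. Neither TRP2 nor TRP4 had a wild-type array above background.

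The members also differed among themselves without TRP1. TRP2 minus TRP5 differed by 3.24 between the strains, TRP3 minus TRP5 by 1.73 and TRP4 minus TRP5 by 1.15. TRP3 and TRP4 were the closest pair, with a distance of 0.871 between their log2 profiles over the 4 arrays, each centred on its own mean. TRP1 and TRP5 were the farthest apart, at 4.30. Each of TRP2 to TRP5 was below background on 1 array or more, and the part of noise in these distances was not tested.

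The direction of TRP1 held in the 12 alternatives run, while its order against TRP2 did not. The TRP1 difference stayed between 2.88 and 3.66 in the 12 alternatives, and TRP1 met the fold rule in all of them. Leaving out values below 0, keeping bright genes only and the replicate block could not change it, and each gave 3.41. The same holds for TRP3, TRP4 and TRP5, which kept their differences there. The rank of TRP1 among the genes above background on all 4 arrays was 1 to 3. TRP2 exceeded TRP1 with median scaling (3.18 against 2.88), as deposited (3.41 against 3.32) and without an offset (3.53 against 3.45), and was 1.24 with a larger offset of 4.72. TRP3 met the fold rule with median scaling (1.02), as deposited (1.44) and without mutant replicate 2 (1.12). TRP4 was -0.04 without wild-type replicate 1 and up to 0.90 as deposited. TRP5 was lower in all 12, from -1.14, past the fold rule, without wild-type replicate 1 to -0.25 as deposited. In the deposited values all genes together shifted up by a median of 0.63, and with median scaling by 0.27, so TRP5 was lower still relative to that shift.

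**Figure D4:**
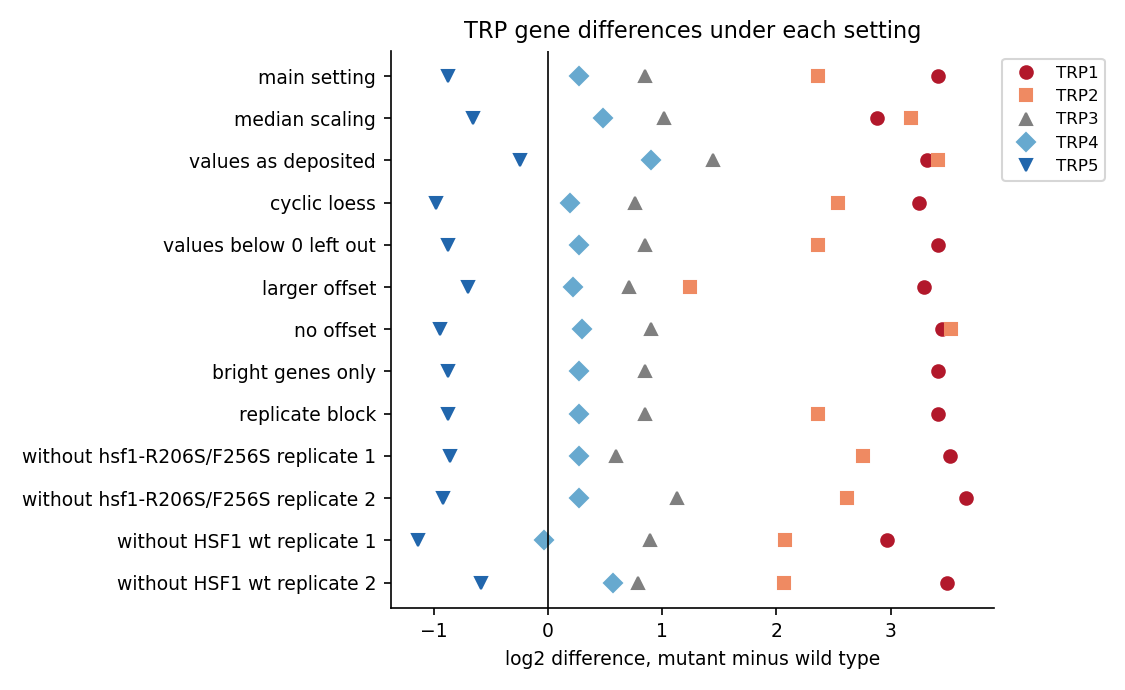
Log2 difference, mutant minus wild type, of each TRP gene under the setting used here and 12 alternatives, 1 row each; TRP2 has no point for bright genes only, since it is dim. TRP1 lies between 2.88 and 3.66 throughout, TRP5 is below 0 throughout, and TRP2 moves between 1.24 and 3.53.

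The genes next to TRP1 differed little between the strains. Of the 4 measured genes within 3 systematic-name positions of TRP1, none met the fold rule, beside 13.5% of all genes upward and 12.8% downward. Their differences ran from -0.43 to 0.07. SOK1, the nearest by name, had 16.8 and 16.9 in the mutant, against 15.2 and 23.4 in the wild type. MAF1, a repressor of RNA polymerase III, had 44.4 and 43.6 in the mutant, against 40.3 and 43.7 in the wild type. RAD57, a recombination gene, differed by -0.31, and the galactose sensor gene GAL3 was not above background on any array. Around the other members, the 5 neighbours of TRP4 ran from 0.08 to 0.80 and the 5 of TRP5 from -0.29 to 0.95, with none past the fold rule. The 6 neighbours of TRP2 ran from -2.89 to 0.46 where AIM10 and PTC2, not above background on any array, met the rule downward. The 6 of TRP3 ran from 0.09 to 2.22, where SAC1 and DOA1 met it upward. With 4 to 6 neighbours each, these counts cannot be told apart from the shares over all genes.

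HSF1 itself was far higher in the mutant, as TRP1 was. The HSF1 spot (YGL073W) had 625 and 540 in the mutant, against 37.1 and -3.61 in the wild type, where only wild-type replicate 1 was above background. Its difference was the highest of all genes, at 6.52 on the log2 scale, and 3.93 against wild-type replicate 1 alone. This spot reports the amount of HSF1 RNA and does not separate the alleles. The part of gene copy number or of a marker in the TRP1 difference was not tested, and any difference in markers between the strains cannot be told apart from the allele. The chaperone genes SSA4, HSP82 and CPR6, known targets of Hsf1, were 9.32-fold, 9.62-fold and 24.0-fold lower in the mutant.

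Other selection marker genes had lower log2 differences than TRP1 and were mostly dim. The 7 others had a median of 0.67, and 3 of them passed the fold rule, 2 being higher and 1 lower, where 13.5% and 12.8% of all genes did. URA3, of pyrimidine synthesis, had 5.45 and 4.06 in the mutant, against -4.14 and -3.99 in the wild type, with only mutant replicate 1 above background. HIS3, of histidine synthesis, had 14.8 and 10.8 in the mutant, against 2.17 and 8.53 in the wild type, again with 1 mutant array above background and no wild-type array. Both met the fold rule upward, but neither allows a fold. LEU2, ADE2, MET17 and LYS2 differed by 0.59, 0.67, 1.68 and -0.32 without meeting the rule, and CAN1, the arginine permease gene, met it downward at -1.16 with 1 of the 4 arrays above background.

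Upstream of tryptophan, the aromatic pathway held both directions. Of 9 measured genes 7 had higher means in the mutant, against 3060 of all 6051. Their median was 0.68, against 0.01 over all genes. By the fold rule ARO3, ARO4 and ARO8 were higher and ARO9 was lower, where 13.5% of all genes were higher by it and 12.8% lower, ARO4 and ARO8 being named after their values were seen. ARO3, a DAHP synthase gene of the first step, had the highest difference at 2.05, with 9.86 and 12.6 in the mutant, against -3.74 and 7.12 in the wild type, where neither array was above background. ARO9, an aromatic aminotransferase gene, was 3.83-fold lower in the mutant, with 7.75 and 8.30 there, against 40.5 and 28.1 in the wild type. Its mutant replicate 2 was below background. The 13 genes of tryptophan uptake and use had a median of 0.35, which was 0.92 when wild-type replicate 1 was left out and 0.10 when wild-type replicate 2 or mutant replicate 1 was. By the fold rule TAT1, WRS1, BNA2 and BNA6 were higher and ARO10 and BNA7 lower, beside the same 13.5% and 12.8% of all genes. TAT1 and BNA7 were not above background on any array, and of the 6 TAT1, BNA2, BNA6 and BNA7 were named after their values were seen. WRS1, the cytosolic tryptophanyl-tRNA synthetase gene, was 2.47-fold higher in the mutant, with 84.4 and 74.0 there, against 30.3 and 32.4 in the wild type. ARO10, a decarboxylase gene of aromatic amino acid breakdown, was 2.11-fold lower, with 43.4 and 31.7 in the mutant, against 99.1 and 63.8 in the wild type.

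Most genes that feed the pathway or control it had higher means in the mutant, where 3060 of all 6051 did. Of 10 genes that supply phosphoribosyl pyrophosphate, glutamine and serine, 9 had higher means and PRS1, GLN1 and SER1 met the fold rule, each being higher, beside 13.5% of all genes, with a list median of 0.77. PRS1 and SER1 were named after their values were seen, and PRS1 was above background on 1 mutant array only. GLN1, the glutamine synthetase gene, was at least 1.92-fold higher, and SER3 differed by 0.57. Of 14 regulators of general amino acid control, 13 had higher means, 8 met the rule upward, beside 13.5% of all genes, and none downward. Among those past the rule, GCN1, GCN3, GCD1, GCD11 and SUI2 had no wild-type array above background, and GCN1 no mutant array either. GCN1, GCD1, GCD11 and SUI2 were named after their values were seen. The median of the 14 was 1.20, and 0.55 without wild-type replicate 2, 0.68 with values below 0 left out and 0.79 without an offset. GCN3, a subunit of the exchange factor eIF2B, was at least 1.14-fold higher and GCD6 differed by 0.26. GCN4 itself, named after its values were seen, had 345 and 92.8 in the mutant, against 70.7 and 70.9 in the wild type. Both mutant arrays were higher, but they differed from each other more than mutant replicate 2 did from the wild type.

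Other amino acid pathways had median differences below that of TRP1. The median was 0.85 over 7 histidine genes, 0.95 over 7 arginine genes, 0.59 over 11 branched-chain genes, 0.96 over 8 lysine genes and 0.27 over 5 threonine and homoserine genes. Without wild-type replicate 2 the histidine median was 0.17, the branched-chain one 0.21 and the lysine one 0.63, and without mutant replicate 1 the arginine one was 1.56, so the sizes are not settled. Among members above the limit on both mutant or both wild-type arrays, the highest and lowest were HIS5 at 1.41 and HIS6 at 0.85, ARG7 at 1.64 and ARG3 at 0.50, and ILV5 at 2.30 and BAT2 at -0.16. Dimmer members reached lower values, with HIS1 at -1.87 and ILV6 at -2.66, both past the fold rule downward and not above background on any array, and both named after their values were seen. LYS9, a lysine pathway gene, was at least 2.19-fold higher in the mutant, while LYS2 differed by -0.32. HOM2 was at least 1.08-fold higher and HOM3 differed by 0.18. Over all 88 listed genes other than the members, 69 had higher means, against 3060 of all 6051, 31 (35.2%) met the fold rule upward, against 13.5% of all genes, and 6 met it downward, against 12.8%. Only GCN3, whose wild-type arrays were not above background, had a larger log2 difference than TRP1 with the offset used here. Others of the 88, such as URA3, HOM2, ILV5 and LYS9, also had no wild-type array above background. Their differences depend on the offset, so the order of TRP1 against such genes is not settled. Of the 88 genes, 38 were bright. More spots were above background on the mutant arrays, 61.2% and 41.5%, against 40.6% and 24.9% on the wild-type arrays, and the part of this in the list counts was not tested.

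**Figure D5:**
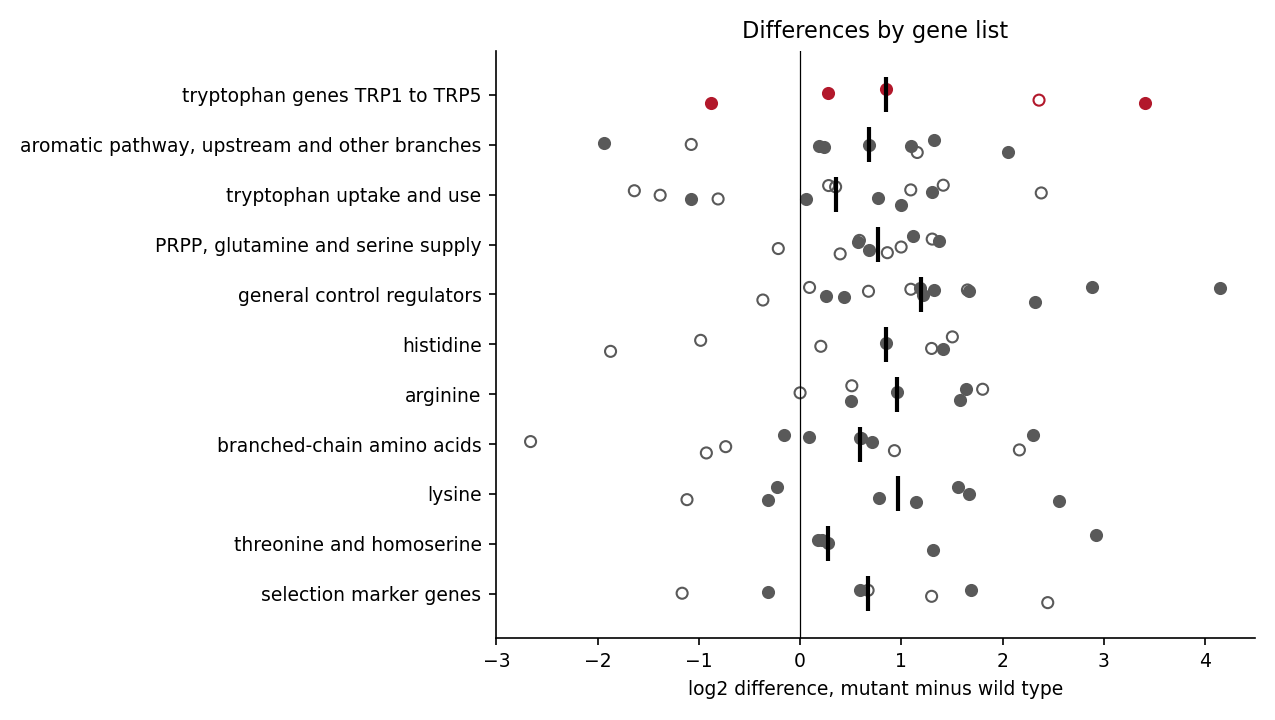
Log2 difference, mutant minus wild type, of each gene by list; filled points exceeded the background limit on both mutant or both wild-type arrays, open points did not, and black bars are list medians, with TRP1 drawn in the top row only. TRP1 at 3.41 lies right of all listed genes but GCN3, and most lists have medians between 0.27 and 1.20. Genes without a wild-type array above background have no settled place in this order.

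The genes most like each member were those with the smallest distance between centred log2 profiles over the 4 arrays, among bright genes. For TRP1 they were YOR385W at 0.632, NOP56, a gene for ribosomal RNA processing, at 0.787 and RPS9B, a ribosomal protein gene, at 0.814. The wild-type values of YOR385W, 7.555 and 12.06, and of NOP56, 3.495 and 5.76, lay below the limits of 11.4 and 20.8. Their distances therefore rest partly on values within background. YOR385W, NOP56 and RPS9B were all farther from TRP1 than the nearest genes of the other members were from theirs. TRP1 was chosen with its difference known, and that was the 6th highest of 2222 bright genes. Few genes could therefore lie near it, and the larger distances are no further trait of TRP1. For TRP3 they were DBP5, HEM15 and URA5, at 0.0223 to 0.0637. For TRP4 they were NUP170, INM1 and YPD1, at 0.0929 to 0.118, and for TRP5 SMN1, AHC2 and GRR1, at 0.116 to 0.152. TRP2 exceeded the limit on 1 array only and was left out. Being dim, TRP2 could not be among the nearest of another member either. Its distance to TRP1 was 1.07, the smallest of the other TRP genes. TRP1, TRP3, TRP4 and TRP5 were not among the 3 nearest of each other. With 3 places among 2222 bright genes, this does not show whether the members move together.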

How the data were processed

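The deposited values are spot intensities on a linear scale, 1 per spot and array, for 6084 spots on 4 arrays. They fall below 0 on every array and their means lie between 32.4 and 32.6, so background subtraction and scaling to a common mean are inferred from the deposited intensity values. Which software the authors used was not stated in the labels. GEO's platform annotation, which can be old, gave 1 symbol for 5523 spots, several for 0 and none for 561. All 5523 matched a current gene table (assembly R64), with 0 symbols changed.

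Quantile normalization used limma 3.58.1 (R 4.3.3). Negative values were raised to 0 and log2 was taken after adding 1.06, which is the 5th percentile of the positive values. Spots of a gene were averaged. Background limits were 3 times the noise SD estimated from negative values, and 61.2% and 41.5% of spots passed on mutant replicates 1 and 2, against 40.6% and 24.9% on wild-type replicates 1 and 2. Array number limits the precision. Differences are mutant minus wild type. limma (lmFit, eBayes, two-sided, Benjamini-Hochberg) ran over all genes without a block, with 2 residual and 1.54 prior degrees of freedom. An exact test of 2 against 2 arrays cannot go below 0.333. Where a strain lay below background, a fold is a bound against its limits. The scripts were tested on simulated data. Members, lists and tests were chosen with earlier results of these data known. Named genes were the members, their neighbours by systematic name, their nearest profiles, all selection markers, and the highest and lowest listed gene above background in each list; HSF1, SSA4, HSP82 and CPR6 describe the series. A promoter motif search was planned and not run, since no sequences were used here. Alternatives were median scaling, no scaling, cyclic loess, other treatments of low values, bright genes only, a replicate block and leaving out each array.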

Additional observations from a re-analysis of the deposited data

How the results depend on the processing

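With bright genes alone, 12 genes passed an adjusted p of 0.05 in limma, against 0 otherwise. Genes past the fold rule upward and downward numbered 818 and 772, against 1700 and 338 as deposited, 501 and 426 with the larger offset, 283 and 220 over bright genes only (fewer genes enter), and 1049 to 1282 and 999 to 1394 without 1 array. The TRP1 difference was 3.41, and 2.88 with median scaling and 2.97 to 3.66 without 1 array. The median of TRP2 to TRP5 was 0.56, and 0.75 with median scaling, 1.17 as deposited, 0.27 over bright genes (TRP2 is left out) and 0.43 to 0.70 without 1 array. The gap of TRP1 to the mean of TRP2 to TRP5 was 2.76, and 1.87 with median scaling, 1.94 as deposited, 2.92 with the larger offset, 2.50 without an offset, 3.33 over bright genes and 2.52 to 2.89 without 1 array. The causes were not tested. The replicate block left all differences as they were (TRP1 3.41) and called 0 genes. The sample titles do not say whether arrays with the same replicate number were processed together. The correlation between the strains' replicate deviations across genes was 0.0196. That cannot settle it, since only 2222 of the 6051 were bright. The medians of the 10 lists stayed above 0 in the 12 alternatives but moved widely, from 0.17 to 1.54 for histidine, 0.10 to 1.03 for tryptophan uptake and use, 0.55 to 1.55 for general control, 0.21 to 1.21 for the branched-chain genes and 0.24 to 1.27 for the aromatic pathway. No TRP gene had a second spot, so the comparison of single spots was not run. Each of TRP2 to TRP5 was below background on 1 array or more, which limits their folds.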
